A study of Mus musculus with 8 samples.

Results

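The genes that present antigen were compared between kidneys of 4 Pkd1V/V mice, homozygous for a hypomorphic allele of Pkd1 and labelled as cystic, and kidneys of 4 wild-type littermates, all taken at postnatal day 10 (P10). The genes were chosen by name. Every gene whose symbol in the array's annotation begins with H2-, the prefix of the mouse major histocompatibility complex (MHC), was taken, together with B2m, Cd74, Tap1, Tap2, Tapbp, Ciita, Cd1d1, Canx, Calr, Pdia3, and Erap1. This gave 46 of the 16593 named genes on the Illumina MouseRef-8 v2.0 BeadChip, and 26 of them gave a signal over background on at least 3 of the 8 arrays and were tested. The other 20 are described by their values alone. Kidneys were homogenized and centrifuged, and RNA was taken from the pellet, without the supernatant. Each array held 1 kidney, and no agent was given. The allele is carried in every cell of the mutant, and the strain of these mice was not given in the sources used here.

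MHC class I molecules sit on nearly all nucleated cells. They consist of a heavy chain and the light chain β2-microglobulin (B2m), and show peptides that the proteasome cuts and the transporter Tap1/Tap2 carries into the endoplasmic reticulum, where tapasin (Tapbp), calreticulin (Calr), calnexin (Canx), Pdia3, and the peptidase Erap1 help to load them. MHC class II molecules are pairs of α and β chains made mainly by dendritic cells, macrophages, and B cells, and by epithelium under interferon-γ. Their chains are escorted by the invariant chain Cd74, peptides are exchanged by H2-DM under the control of H2-O, and transcription depends on the coactivator Ciita. In class II promoters a set of short elements, which ends with the Y box bound by NF-Y, lies just before the start of the gene. Classical class I promoters hold an enhancer A with a site for NF-κB.

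Promoter stretches of 4 genes whose values follow are printed as examples, 2 for each class, with the motif in capitals. They do not divide the classes, since H2-K1 and H2-D1 also hold the letters of the Y box, on the opposite strand. RefSeq promoters of GRCm38.p6 (250 bases before to 50 after the start) were found for 34 of the 46 genes. The Y box (CTGATTGG) is shown for H2-Aa, which encodes a class II α chain, at chr17:34287852-34287919 on the minus strand, where it begins 51 bases before the start, and for H2-Eb1, a class II β chain, at chr17:34305760-34305827 on the plus strand, 62 bases before the start. The kappaB site of enhancer A (GGGGATTCC) is shown for the class I heavy chains H2-K1, at chr17:34000435-34000503 on the minus strand and 111 bases before a listed start, and H2-D1, at chr17:35262878-35262946 on the plus strand and 171 bases before the start.
H2-Aa: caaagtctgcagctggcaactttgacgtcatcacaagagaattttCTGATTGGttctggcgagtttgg
H2-Eb1: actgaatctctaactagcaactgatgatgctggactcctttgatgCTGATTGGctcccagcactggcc
H2-K1: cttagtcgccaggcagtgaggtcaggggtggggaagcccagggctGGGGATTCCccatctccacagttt
H2-D1: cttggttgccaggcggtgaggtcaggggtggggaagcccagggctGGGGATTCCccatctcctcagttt

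A Y box on the gene's own strand before the start was found in 4 of the 8 class II genes with a promoter (H2-Aa, H2-Eb1, H2-Eb2, and H2-Oa) and in 0 of the 18 class I heavy chain genes, against 1.88% of all 32851 promoters. On either strand it was found in 4 class II and 12 class I genes, and in 4.1% of all promoters. In class I genes it lay on the opposite strand in every case. The kappaB site was found in 3 class I genes (H2-K1, H2-D1, and H2-Q7), in 0 class II genes, and in 0.25% of all promoters. The shorter CCAAT box (ATTGG), which lies within the Y box, was found in all 8 class II and in 16 class I genes, and in 37.4% of all promoters. The core of the interferon-stimulated response element (GAAANNGAA) was found in B2m, H2-T23, and Erap1, and in 8.56% of all promoters. The gamma-activated site (TTCNNNGAA) was found in H2-DMb2, H2-M3, and H2-M11, and in 8.3% of all promoters. Both strands were searched, and a match describes letters only.

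All 8 arrays held 25697 probes, of which 51.8 to 54.3% were detected, with a median of 35 to 40 beads behind each signal. The probe for Pkd1 gave 64.3, 136, 118, and 87.3 in Pkd1V/V kidneys 1 to 4, and 85.4, 146, 118, and 118 in wild-type kidneys 1 to 4 (signal after quantile normalization, here and throughout). These ranges overlapped, and because the mutation is not stated to remove the transcript, the probe did not check the labels. Markers of proximal tubule were lower in Pkd1V/V kidneys for 6 of the 6 genes tested, beside 15.8% of all tested genes. The summed signal of the 7 on the array was 6837 to 13453 in Pkd1V/V and 30943 to 35319 in wild-type kidneys. This was not particular to proximal tubule. Of the markers tested, 3 of 3 of thick ascending limb, 4 of 5 of endothelium, and 1 of 1 of podocytes were lower. Of those of collecting duct principal cells, 2 of 4 were higher, beside 16.8% of all tested genes. Liver genes stood apart in wild-type kidney 4, where Ahsg read 14245, against at most 5.43 in the other 7 kidneys. Counts are therefore also given without this kidney and Pkd1V/V kidney 1, which was the highest in most antigen presentation genes. Each group's replicates are separate kidneys. In RNA of a homogenized kidney, more cells of a type and more RNA per cell cannot be told apart.

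Most class II genes tested were higher in Pkd1V/V kidneys, and class I genes did not pass the test. Of the 6 class II chains tested, 5 were higher at a Benjamini-Hochberg adjusted P under 0.1 (limma, over all 9833 genes tested), as was Cd74. One of the 5, H2-DMb2, was detected in 3 Pkd1V/V and 0 wild-type kidneys and entered the test through the mutants alone, which leaves 4 of 5 chains, or 5 of 6 genes with Cd74. Of the 10 class I heavy chains tested, 0 were called, although 8 had a log2 fold change above 0 and 1 had an unadjusted P under 0.05. B2m and the 6 tested genes of peptide supply and loading were not called either, with 0 of these 7 genes under an unadjusted P of 0.05. Over all 26 genes, 6 were higher and 1 was lower, beside 16.8% of all tested genes higher and 15.8% lower. Beside these shares stand the 5 of 6 class II genes detected in both groups and the 0 of 10 class I heavy chains. The median log2 fold change was 1.99 for the class II chains without H2-DMb2 and 0.31 for the class I heavy chains, and 0.02 for all genes. In wild-type kidneys those class II chains averaged 155 to 378, and class I chains 16.6 (H2-M9) to 363 (H2-T23). An offset of 16 added to each signal understates the change of dim genes, so these medians do not compare the classes at like signal. A test of the classes as lists was not made. Of the class II chains, 4 were called without Pkd1V/V kidney 1 and wild-type kidney 4 together. Without wild-type kidney 3 there were 3, and without Pkd1V/V kidney 4 there were 2. H2-DMb2 was among them each time, and without Pkd1V/V kidney 4 the only other chain was H2-Ab1. The class I chains had 0 calls in each of these fits and 2 without Pkd1V/V kidney 2 or 3. Without the filter on low signals 1 class II chain, H2-DMb2, and Cd74 were called. The methods' SAM called 0 of these genes on linear signals. On log2 signals it called 4 class II chains, H2-DMb2 among them, and Cd74.

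**Figure D1:**
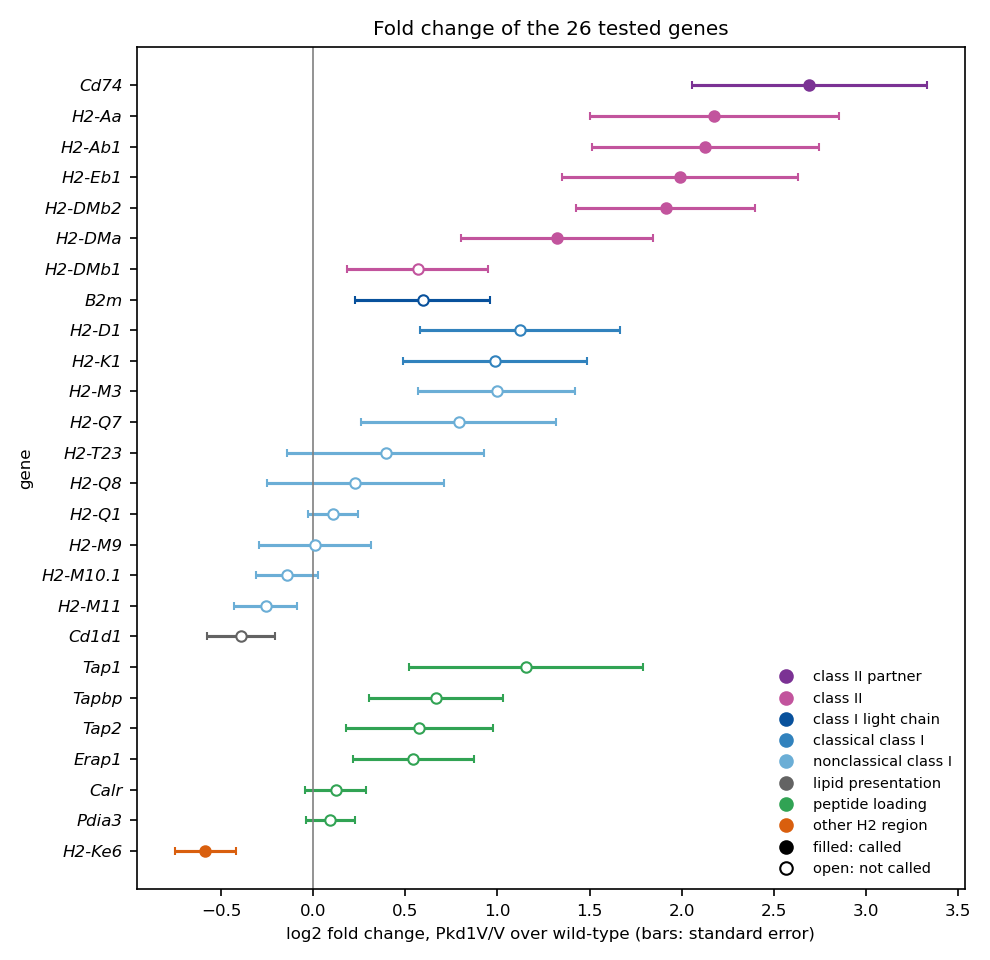
Log2 fold change, Pkd1V/V over wild-type, of the 26 tested genes (horizontal axis) by gene (vertical axis), coloured by role, with the standard error from limma as bars and filled points for genes called at an adjusted P under 0.1. The filled points are Cd74 and 5 class II chains on the right and H2-Ke6 on the left, while every class I and loading gene is open.

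Cd74, the invariant chain that guides class II molecules to the endosome, was higher in Pkd1V/V kidneys. Its signal was 6627, 899, 633, and 3385 in Pkd1V/V kidneys 1 to 4, and 237, 278, 258, and 359 in wild-type kidneys 1 to 4. The lowest Pkd1V/V kidney was above the highest wild-type kidney. Its log2 fold change was 2.69 (standard error 0.64, limma adjusted P = 0.0132), and 2.09 without Pkd1V/V kidney 1 (adjusted P = 0.0133). The call was kept whichever kidney was left out, at an adjusted P of at most 0.0381. A second probe gave a log2 fold change of 2.71.

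The α chain H2-Aa read 3524, 422, 294, and 1737 in Pkd1V/V kidneys 1 to 4, and 175, 161, 184, and 282 in wild-type kidneys 1 to 4. Its partner, the β chain H2-Ab1, read 5952, 888, 563, and 2708 in Pkd1V/V kidneys, and 317, 361, 369, and 466 in wild-type kidneys. Neither gene overlapped between the groups, and in both the order of the mutants was the same, with kidney 1 highest, then 4, then 2, then 3. The log2 fold change was 2.18 for H2-Aa (standard error 0.68, limma adjusted P = 0.0416) and 2.13 for H2-Ab1 (standard error 0.62, limma adjusted P = 0.0317). Without Pkd1V/V kidney 1 the log2 fold changes were 1.55 and 1.53, and both genes were still called. Without Pkd1V/V kidney 4 H2-Aa had an adjusted P of 0.102 and was no longer called, while H2-Ab1 was, at 0.0801 (limma). The other 3 probes for H2-Ab1 had log2 fold changes of 1.85 to 1.96.

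H2-Eb1, the β chain of the second class II molecule of the mouse, read 2677, 310, 223, and 986 in Pkd1V/V kidneys 1 to 4, and 144, 145, 152, and 179 in wild-type kidneys 1 to 4. Its groups were apart as well, and its log2 fold change was 1.99 (standard error 0.64, limma adjusted P = 0.0478). The call was lost without Pkd1V/V kidney 4 (limma adjusted P = 0.110) and without wild-type kidney 3, where the adjusted P of 0.100002 was just past the threshold. H2-Ea, its α chain, which mice of the b haplotype such as C57BL/6 do not make, was not detected in any kidney. Its signal lay between -4.91 and 9.01 in Pkd1V/V and between 0.43 and 5.79 in wild-type kidneys.

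The peptide exchange factor H2-DM is a pair of an α chain, H2-DMa, and a β chain, H2-DMb1 or H2-DMb2. H2-DMb2 read 191, 16.2, 26.1, and 59.3 in Pkd1V/V kidneys 1 to 4, and -0.51, -0.79, 3.8, and 4.8 in wild-type kidneys 1 to 4. It was detected in 3 Pkd1V/V and 0 wild-type kidneys, so that it entered the test through the mutants alone, unlike the other 25 genes. It was called higher with a limma adjusted P of 0.0181. Since the wild-type signal was not above background, its change is a bound, and it was at least 2.23-fold higher in Pkd1V/V kidneys. The bound sets the mean of log2 signals in mutants against the weakest detected signal of each wild-type array.

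H2-DMa read 1384, 198, 213, and 584 in Pkd1V/V kidneys 1 to 4, and 154, 155, 153, and 199 in wild-type kidneys 1 to 4. Pkd1V/V kidney 2 was thus level with the highest wild-type kidney, and the log2 fold change of 1.32 (standard error 0.52) was called at a limma adjusted P of 0.0953. Leaving out any kidney other than Pkd1V/V 2 or 3 ended that call, at adjusted P values of up to 0.189, and its log2 fold change was 0.78 without Pkd1V/V kidney 1. H2-DMb1 read 992, 263, 278, and 648 in Pkd1V/V kidneys 1 to 4, and 290, 394, 301, and 270 in wild-type kidneys 1 to 4. It was not called (log2 fold change 0.57, standard error 0.38, limma adjusted P = 0.319), and only Pkd1V/V kidneys 1 and 4 were above the wild-type range.

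Ciita, the coactivator on which class II transcription depends, was too dim to be tested. Its signal was 87.4, 4.6, 2.76, and 39.1 in Pkd1V/V kidneys 1 to 4, and -6.11, -8.16, -8.01, and 0.36 in wild-type kidneys 1 to 4. It was detected in Pkd1V/V kidneys 1 and 4, which were the 2 kidneys highest in class II chains, and in 0 wild-type kidneys. All 4 mutants read above all 4 wild-type kidneys. Pkd1V/V kidneys 2 and 3 and every wild-type kidney were below detection, so that the order among them carries no weight. Among tested genes, groups apart in this direction held for 15.4% of all and for 6 of the 26 here, H2-DMb2 among them. Those shares do not cover genes too dim to be tested. No fold is given, because the mean of the log2 signals of the mutants did not exceed that of the weakest detected signals on the wild-type arrays. H2-Oa and H2-Ob, which restrain H2-DM in B cells, were not detected in any kidney, and H2-Eb2 was detected in Pkd1V/V kidney 1 alone, at 30.9.

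**Figure D2:**
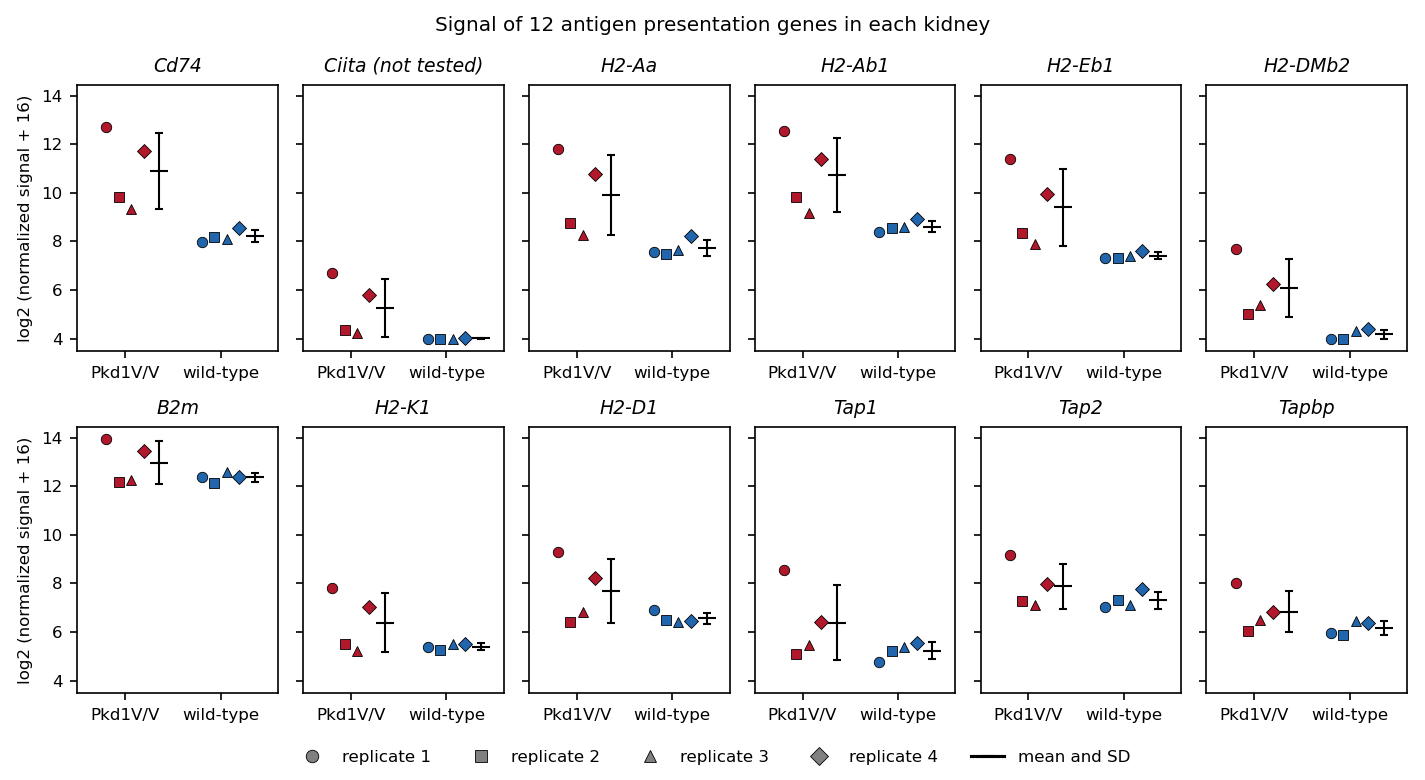
Signal of 12 genes in each kidney, as the log2 of the normalized signal plus 16 (vertical axis), with 4 Pkd1V/V kidneys left and 4 wild-type kidneys right in each panel, a marker shape for each replicate number, and the mean with its SD beside the points. In Cd74, H2-Aa, H2-Ab1, H2-Eb1, and H2-DMb2 every Pkd1V/V kidney is above every wild-type kidney, while in B2m, H2-K1, H2-D1, Tap1, and Tap2 Pkd1V/V kidneys 2 and 3 lie among the wild-type kidneys or level with the lowest of them.

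B2m, which every class I molecule needs, read 15968, 4682, 4948, and 11186 in Pkd1V/V kidneys 1 to 4, and 5299, 4502, 6187, and 5394 in wild-type kidneys 1 to 4. Pkd1V/V kidneys 1 and 4 were above all wild-type kidneys and kidneys 2 and 3 were within their range. Its log2 fold change was 0.59 (standard error 0.37, limma adjusted P = 0.276) with a 95% interval of -0.23 to 1.41. A second detected probe gave 0.52, and the third was at background.

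The classical heavy chain H2-D1 read 617, 69.1, 96.2, and 287 in Pkd1V/V kidneys 1 to 4, and 103, 73.4, 69.9, and 72.9 in wild-type kidneys 1 to 4. H2-K1, the other classical heavy chain on the array, read 207, 29, 21.6, and 115 in Pkd1V/V kidneys 1 to 4, and 25.3, 21.9, 29.8, and 28.8 in wild-type kidneys 1 to 4. In both genes kidneys 1 and 4 were above the wild-type range and the groups overlapped. The log2 fold change was 1.12 for H2-D1 (standard error 0.54, 95% interval -0.09 to 2.34) and 0.99 for H2-K1 (standard error 0.50, 95% interval -0.13 to 2.10), with limma adjusted P values of 0.164 and 0.184. Intervals this wide hold changes of the size seen in class II chains, so that a smaller change of class I is not shown by them. H2-D1 was called without Pkd1V/V kidney 2 (limma adjusted P = 0.0527) and H2-K1 without kidney 3 (0.0601), with log2 fold changes of 1.55 and 1.37. The wild-type signals of H2-K1 were near the weakest detected signals of those arrays, 18.6 to 22.5, which limits its fold change. A second probe for H2-K1 read 121, -4.4, 15.5, and 33.7 in Pkd1V/V kidneys 1 to 4, and at most 6.46 in wild-type kidneys. It was detected in 2 Pkd1V/V and 0 wild-type kidneys and was not tested. Class I genes are close copies of each other, probe sequences were not given, and a probe may read more than 1 of them.

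Among the nonclassical heavy chains, H2-M3, which presents formylated peptides, read 383, 70.7, 68.4, and 140 in Pkd1V/V kidneys 1 to 4, and 54.2, 54.2, 65.8, and 55.5 in wild-type kidneys 1 to 4. It was the single class I gene whose groups did not overlap, and it was not called (log2 fold change 0.995, standard error 0.43, limma adjusted P = 0.122). It was called without Pkd1V/V kidney 2 (0.0747) or kidney 3 (0.0669). H2-Q7, a Qa-2 chain, read 713, 127, 90, and 337 in Pkd1V/V kidneys 1 to 4, and 130, 89, 132, and 176 in wild-type kidneys 1 to 4. H2-T23, the Qa-1 chain read by receptors of NK cells, read 1554, 207, 253, and 581 in Pkd1V/V kidneys 1 to 4, and 323, 264, 394, and 470 in wild-type kidneys 1 to 4. In H2-T23 Pkd1V/V kidneys 2 and 3 were below every wild-type kidney and kidneys 1 and 4 above, and its log2 fold change of 0.39 was -0.17 without Pkd1V/V kidney 1. A second probe for H2-T23 gave a log2 fold change of -0.0028 and read 193 in Pkd1V/V kidney 3 and 177 in wild-type kidney 2, so that kidney 3 was not below every wild-type kidney there. H2-Q8 behaved alike, with 0.23, and -0.21 without that kidney. The other 4 tested chains had log2 fold changes of 0.11 (H2-Q1), 0.01 (H2-M9), -0.14 (H2-M10.1), and -0.26 (H2-M11), and that of H2-M9 had no stable sign.

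The other 14 class I heavy chains were not tested, and 11 of them, mostly of the H2-M series, were not detected in any kidney. H2-T10 read 23, 9.56, 2.86, and 41.7 in Pkd1V/V kidneys 1 to 4, and -5.36, 3.25, 1.23, and 5.63 in wild-type kidneys 1 to 4, and was detected in 2 Pkd1V/V kidneys. H2-Q2 was detected in 2 Pkd1V/V kidneys and H2-M2 in 1, with at most 23.6 and 29.3, and all 3 were detected in 0 wild-type kidneys. Cd1d1, which presents lipids to NKT cells, read 94 to 114 in Pkd1V/V and 111 to 215 in wild-type kidneys (log2 fold change -0.39, standard error 0.19, limma adjusted P = 0.158).

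The transporter chain Tap1 read 357, 18.5, 27.9, and 69.2 in Pkd1V/V kidneys 1 to 4, and 10.8, 21.4, 25.9, and 30.6 in wild-type kidneys 1 to 4. Its mean rested on Pkd1V/V kidney 1, since the log2 fold change of 1.15 (standard error 0.63, limma adjusted P = 0.220) was 0.43 without it. Tap2 read 555, 140, 124, and 234 in Pkd1V/V kidneys 1 to 4, and 115, 142, 121, and 206 in wild-type kidneys 1 to 4 (log2 fold change 0.58, standard error 0.40, limma adjusted P = 0.335). Tapbp, which bridges the transporter and the empty class I molecule, read 240, 49.9, 73.3, and 97 in Pkd1V/V kidneys 1 to 4, and 46.4, 43.1, 71.2, and 67.6 in wild-type kidneys 1 to 4. Its log2 fold change was 0.67 (standard error 0.36, limma adjusted P = 0.218), and it was called without Pkd1V/V kidney 2, at 0.0862.

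Erap1, the peptidase that trims peptides to length, had a log2 fold change of 0.54 (limma adjusted P = 0.262) and 14.5 to 67.9 in Pkd1V/V against 3.91 to 27 in wild-type kidneys. The general chaperones of the endoplasmic reticulum were not called, and their intervals were narrow. Calr read 1058 to 1363 in Pkd1V/V and 897 to 1359 in wild-type kidneys, with a 95% interval of the log2 fold change of -0.25 to 0.49. Pdia3 read 3628 to 4878 in Pkd1V/V and 3898 to 4754 in wild-type kidneys, with an interval of -0.20 to 0.39. The probe for Canx was not detected in any kidney, so this probe gave no level. Of 6 tested genes for folding in this compartment that are not specific to MHC, 0 were called in either direction, with a median log2 fold change of 0.02.

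H2-Ke6 was the single member called lower. It lies in the MHC region but encodes a steroid dehydrogenase, Hsd17b8, and presents nothing. Its signal was 958, 1300, 952, and 886 in Pkd1V/V kidneys 1 to 4, and 1241, 1811, 1419, and 1711 in wild-type kidneys 1 to 4, with a log2 fold change of -0.59 (standard error 0.17, limma adjusted P = 0.0286). Pkd1V/V kidney 2 overlapped wild-type kidney 1. The call was kept with any 1 kidney left out, and lost without Pkd1V/V kidney 1 and wild-type kidney 4 together (limma adjusted P = 0.109).

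The 4 mutants differed far more among themselves than the 4 wild-type kidneys did in Cd74, class II chains, B2m, H2-D1, H2-K1, and Tap1. In Calr, Cd1d1, H2-Ke6, and H2-M10.1 the SD of the signal was smaller in the mutants. Pkd1V/V kidney 1 was the highest of the 8 in 21 of the 26 tested genes, a rank it held in 18.4% of all genes. Pkd1V/V kidney 4 was the second highest in 19 of the 26, against 13.8% of all genes. Kidneys 2 and 3 were highest or second in 0 of them. The median distance from the wild-type mean over the 5 class II chains other than H2-DMb2 was 3.93, 0.93, 0.49, and 2.56 on the log2 scale in Pkd1V/V kidneys 1 to 4, and -0.09, -0.08, -0.04, and 0.25 in wild-type kidneys 1 to 4. Over the 10 class I heavy chains it was 1.81, -0.27, -0.12, and 0.76 in Pkd1V/V kidneys 1 to 4, and -0.01, -0.13, 0.10, and 0.20 in wild-type kidneys 1 to 4. The class II median was thus above the wild-type range in all 4 mutants, and the class I median in kidneys 1 and 4 only.

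**Figure D3:**
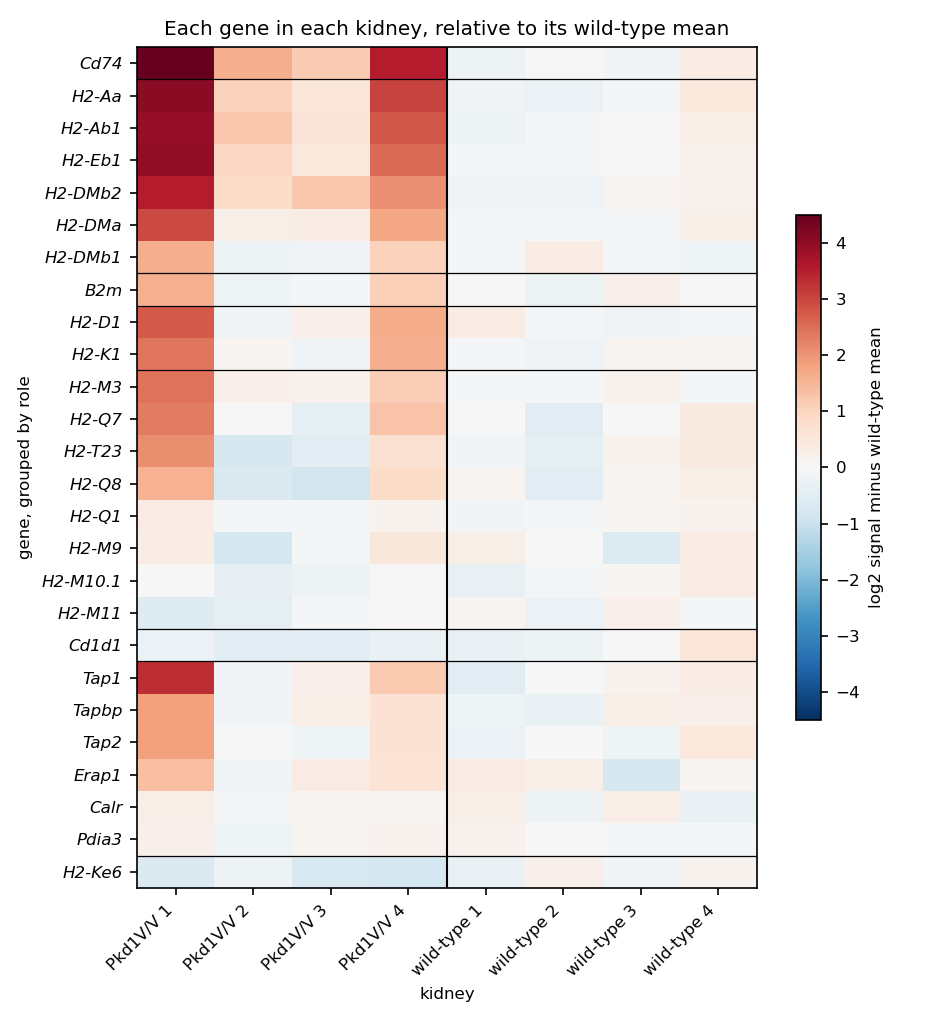
Log2 signal of the 26 tested genes (rows, grouped by role) in 4 Pkd1V/V kidneys (left) and 4 wild-type kidneys (right), less each gene's wild-type mean, in red where higher and blue where lower. Pkd1V/V kidneys 1 and 4 are red from Cd74 through H2-Q8 and in Tap1, Tapbp, and Tap2, while kidneys 2 and 3 are red mainly in Cd74 and the first 4 class II chains.

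Cd74 was also set against B2m within each kidney, as the log2 signal of Cd74 less that of B2m. The pair was picked with the values of both genes seen, so it describes these genes and is no test of the classes. The difference was -1.27, -2.36, -2.93, and -1.72 in Pkd1V/V kidneys 1 to 4, and -4.39, -3.94, -4.5, and -3.85 in wild-type kidneys 1 to 4. It averaged -2.07 ± 0.73 in Pkd1V/V and -4.17 ± 0.32 in wild-type kidneys (SD, n = 4 each), which is 2.10 higher in Pkd1V/V kidneys. The groups did not overlap.

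Genes that work beside MHC were read from lists, whose counts of calls stand beside 16.8% of all tested genes higher and 15.8% lower. The immunoproteasome, which cuts peptides for class I, and its activator had 0 of 5 genes called, with a median log2 fold change of 1.16 and 4 of the 5 at adjusted P values of 0.106 to 0.123. Psmb9, an inducible catalytic subunit encoded beside Tap1, read 1971, 135, 149, and 592 in Pkd1V/V kidneys 1 to 4, and 110, 104, 95.8, and 142 in wild-type kidneys 1 to 4 (log2 fold change 1.70, standard error 0.71, limma adjusted P = 0.112). As with Tap1, Pkd1V/V kidney 1 was far above the rest. The 3 constitutive catalytic subunits had 0 called and a median of 0.08. Of 7 lysosomal proteases and reductases of the class II route, 2 were higher and 0 lower, with a median log2 fold change of 0.04. Ctss, the cathepsin that cuts the invariant chain, read 691, 148, 138, and 294 in Pkd1V/V kidneys 1 to 4, and 64.3, 58.5, 59.7, and 88.1 in wild-type kidneys 1 to 4 (log2 fold change 1.72, standard error 0.42, limma adjusted P = 0.0159), with no overlap. Ctsd, an aspartic protease, had a log2 fold change of 0.78 (limma adjusted P = 0.00366).

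Of the 11 regulators of MHC transcription that were tested, 4 were higher and 1 was lower, beside the same 16.8% and 15.8%. Relb, an NF-κB subunit, read 184, 81.7, 69.4, and 95.1 in Pkd1V/V kidneys 1 to 4, and 25.7, 25.8, 25.5, and 35.3 in wild-type kidneys 1 to 4 (log2 fold change 1.41, standard error 0.24, limma adjusted P = 0.00256). Here all 4 mutants stood well clear of the wild-type kidneys. Rela, which encodes the p65 subunit of NF-κB, followed with 0.73 (limma adjusted P = 0.0271). The other 2 called higher were Irf1, an interferon regulatory factor, with 1.11 (0.0441), and Spi1, the myeloid factor PU.1, with 0.79 (0.0513). The call of Irf1 was lost without wild-type kidney 1 or 3 (limma adjusted P of up to 0.1002), and that of Spi1 without wild-type kidney 3 or 4 (up to 0.132). Spi1 was detected in 4 Pkd1V/V kidneys and 1 wild-type kidney. It passed the filter through the mutants, so that its call is no support for the list. Creb1, which binds the class II X2 box, read 10.7, 19.1, 12.4, and 10.9 in Pkd1V/V kidneys 1 to 4, and 26.4, 34.2, 24.9, and 52.9 in wild-type kidneys 1 to 4. It was the gene called lower (limma adjusted P = 0.0126), but it was detected in 0 Pkd1V/V and 4 wild-type kidneys and entered the test through the wild-type kidneys alone, so that its call is no support for the list. Nlrc5, the coactivator of class I, was not tested. It read 254, 4.19, -4.94, and 63.7 in Pkd1V/V kidneys 1 to 4, and -5.71, -2.2, 4.45, and 3.63 in wild-type kidneys 1 to 4, so it was detected in the same 2 mutants as Ciita.

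Of 6 tested genes of interferon receptors and their kinases, 1 was called higher, a share close to the 16.8% of all genes. It was Jak2, a kinase of the interferon-γ receptor, with a log2 fold change of 1.12 (standard error 0.18, limma adjusted P = 0.00208). Of 4 tested genes of co-stimulation and class II turnover, Cd86, the B7-2 ligand on antigen-presenting cells, was called higher, with 1.22 (limma adjusted P = 0.0620). That call was lost with any of 4 kidneys left out (Pkd1V/V 1 and 2, wild-type 1 and 3), at up to 0.152. Cd86 was detected in 4 Pkd1V/V and 2 wild-type kidneys, and would not have passed the filter without the mutants. Of 3 tested genes from a list of receptors that read MHC, 2 were called higher. Cd8b1, a chain of the CD8 coreceptor, had a log2 fold change of 0.60. It was detected in 4 Pkd1V/V and 2 wild-type kidneys, and would not have passed the filter without the mutants. Lilrb4a, a receptor of myeloid cells, was placed on this list, but that it reads MHC was not shown here. Its signal was 94.4, 23.8, 30.7, and 42.5 in Pkd1V/V kidneys 1 to 4, and 3.39, 0.42, 13.4, and 12.2 in wild-type kidneys 1 to 4. It was detected in 4 Pkd1V/V and 0 wild-type kidneys and entered the test through the mutants alone, so that 1 of the 2 receptors detected in both groups was called. The probe for Cd8a, the partner of Cd8b1, and that for Cd4 were not detected in any kidney.

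Markers of macrophages and of leukocytes in general moved with these genes. All 9 tested markers of macrophages and monocytes were higher in Pkd1V/V kidneys, with a median log2 fold change of 1.91, among them C1qb (2.43) and C1qc (2.13), subunits of complement C1q. The summed signal of the 10 markers on the array was 15672, 4037, 3690, and 6654 in Pkd1V/V kidneys 1 to 4, and 1507, 1524, 1613, and 1754 in wild-type kidneys 1 to 4, and Itgam was not detected in any kidney. The order of the mutants was that of Cd74, H2-Aa, H2-Ab1, and H2-Eb1, and all 4 were above the wild-type kidneys. All 4 tested markers of leukocytes in general were higher, with sums of 2452 to 9492 in Pkd1V/V and 882 to 1161 in wild-type kidneys, and Ptprc was not detected in any kidney.

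Of 9 dendritic cell markers, 7 were not detected in any kidney, among them Itgax, Flt3, and Xcr1, and 1 of the 2 tested, Batf3, was higher. The summed signal of these markers was 137 to 236 in Pkd1V/V and 98.8 to 177 in wild-type kidneys. Of 4 B cell markers on the array 1 was tested and 0 were called, with sums of 94.7 to 164 in Pkd1V/V and 90.1 to 138 in wild-type kidneys. Of 6 T and NK cell markers 0 could be tested and 4 were not detected in any kidney, with sums of 27.9 to 108 in Pkd1V/V and 35.5 to 42.4 in wild-type kidneys. The median distance of the 9 macrophage markers from the wild-type mean was 3.31, 1.21, 0.92, and 1.91 on the log2 scale in Pkd1V/V kidneys 1 to 4. That of the class II chains was larger in kidneys 1 and 4 and smaller in kidneys 2 and 3. The part of these cells in the class II result was not tested.

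**Figure D4:**
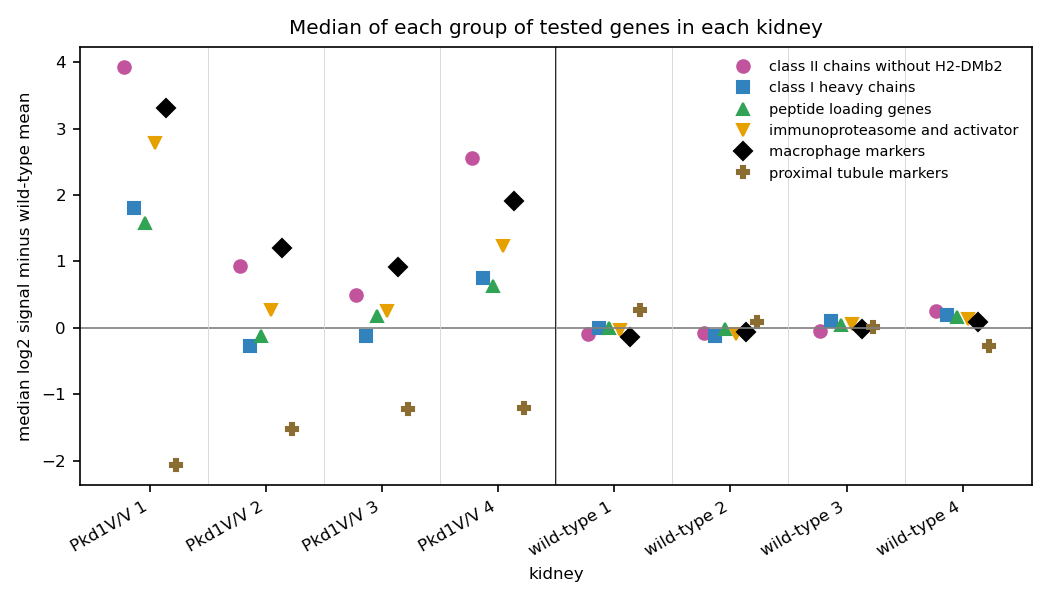
Median log2 signal of each group of tested genes less its wild-type mean (vertical axis) in 4 Pkd1V/V kidneys (left) and 4 wild-type kidneys (right). Class II chains (without H2-DMb2) and macrophage markers are above 0 in all 4 Pkd1V/V kidneys, at 3.93 and 3.31 in kidney 1, class I heavy chains are clearly above 0 in kidneys 1 and 4 only, and proximal tubule markers are below 0 in all 4.

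Pkd1 and the H2 genes share mouse chromosome 17, where 38 of the 46 genes lie. Other genes on that chromosome were counted, with Pkd1 and the 46 genes left out, in the gene order of GRCm38.p6. Between Pkd1 and the H2 genes, 25 of 126 tested genes were higher (19.8%) and 23 were lower (18.3%). Among the H2 genes, 16 of 72 were higher (22.2%) and 8 were lower (11.1%), and on the rest of the chromosome 41 of 266 were higher (15.4%) and 42 were lower (15.8%). These shares stand beside the 16.8% and 15.8% of all genes, and whether the linkage to Pkd1 has a part in the result was not tested. Cd74 lies on chromosome 18 and B2m on chromosome 2.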

How the data were processed

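Kidneys of 4 Pkd1V/V and 4 wild-type mice were hybridized to Illumina MouseRef-8 v2.0 arrays, and the 4 kidneys of each group limit the precision. The authors deposited background-subtracted signal intensities of the 25697 probes, not normalized between arrays, with a detection p-value and the number of beads per probe. They also deposited a table of quantile-normalized intensities, used as an alternative. Software that made the tables was not given in the sources used here.

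Signals were quantile-normalized, values below 0 were set to 0, and log2(signal + 16) was taken in R 4.3.3. Probes with a detection p-value under 0.05 on at least 3 of 8 arrays were kept (14221), and the probe with the highest mean stood for each gene (9833 genes). A single gene symbol was given by the platform annotation for 23978 probes and none for 1719. The 2 groups were fitted with limma 3.58.1 (lmFit, eBayes) and called at a Benjamini-Hochberg adjusted p-value under 0.1 over all genes tested. Fold changes are differences of log2(signal + 16), which understates those of dim genes.

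The genes and lists were chosen with earlier results of these data known. Genes given with every kidney's value were Cd74, Ciita, B2m, H2-K1, H2-D1, H2-Aa, H2-Ab1, H2-Eb1, Tap1, Tap2, Tapbp, and any other member called with a fold of 1.5 or more. Up to 2 genes in each direction with the smallest adjusted p-values were named from each list. Further genes (such as H2-M3, H2-Q7, and Psmb9) were picked with their values in view. On simulated data of 9833 genes, limma recovered 19 of 50 genes changed by a log2 of 0.5 and 40 of 50 changed by 1. It recovered 47 of 50 changed by 2, with 16 false calls among 172. The simulated noise was normal with the same spread in both groups. The mutants here differed far more than the wild-type kidneys in class II chains and in class I chains such as H2-D1. These counts therefore do not give the power for class I or class II genes. Alternatives were other offsets, scalings, filters, and probe rules, a stricter threshold of 0.05, leaving out any 1 kidney, a block for replicate number, array weights with a trend, the authors' table, and the methods' SAM (Significance Analysis of Microarrays) with delta 1.0. SAM on log2 signals and leaving out Pkd1V/V kidney 1 with wild-type kidney 4 were added after seeing the data.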

Additional observations from a re-analysis of the deposited data

Results flagged for a closer look

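Of the 52 sets of 4 kidneys examined (26 tested genes in 2 groups), 3 held a kidney far from the other 3, where the gap to its nearest neighbour took up most of the group's range. Chance alone does this in about 1 of 20 sets. They were H2-D1, highest in wild-type kidney 1 (gap 0.877 of the range), H2-DMa, highest in wild-type kidney 4 (0.957), and H2-M3, highest in wild-type kidney 3 (0.877). In H2-DMa that kidney read 199, level with Pkd1V/V kidney 2 at 198.

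Of the genes left out of the test for want of signal, 5 were detected in at least 1 Pkd1V/V kidney and in 0 wild-type kidneys. Their highest Pkd1V/V signal was 87.4 for Ciita, 41.7 for H2-T10, 30.9 for H2-Eb2, 29.3 for H2-M2, and 23.6 for H2-Q2.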

How the results depend on the processing

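Without a filter on low signals, more genes enter both the fit and the adjustment. Of 6 genes called higher, 2 were then called, and of 5 class II chains 1, H2-DMb2. SAM on linear signals called 0 of the 26 genes higher, with 0 class II chains, while SAM on log2 signals called 5 and 4, H2-DMb2 among both. The other alternatives kept the counts of genes called higher within 1.5 times. Class I heavy chains called higher were 1 under median scaling and 2 with array weights and a trend. With each kidney left out in turn, genes higher ranged from 3 to 9, class II chains from 2 to 5, class I chains from 0 to 2, and loading genes called from 0 to 1. The lowest counts of genes and of class II chains, 3 and 2, came without Pkd1V/V kidney 4, and class II chains were 3 without wild-type kidney 3. H2-DMb2 kept its call with any kidney left out and is part of these counts. Without Pkd1V/V kidney 1 and wild-type kidney 4 together, 5 genes were higher and 0 lower, since H2-Ke6 was lost (limma adjusted P = 0.109).

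Over the 26 genes and all alternatives with a log2 fold change, 505 values kept their direction and their side of the threshold, 18 lost a call, 8 gained one, and 9 changed sign, all 9 of genes not called. Under the stricter filter 6 of the 26 genes were not tested. H2-M9 was -0.20 without an offset, and -0.10, -0.16, and -0.19 without Pkd1V/V kidney 1, Pkd1V/V kidney 4, and wild-type kidney 3. With each kidney left out it ranged from -0.19 to 0.28, H2-Q8 from -0.21 to 0.58, and H2-T23 from -0.17 to 0.77 (log2 fold changes). Without Pkd1V/V kidney 1, H2-Q8 was -0.21 and H2-T23 -0.17. Without that kidney and wild-type kidney 4 together, Calr, H2-Q8, and H2-T23 were -0.035, -0.13, and -0.040.

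Replicate numbers did not pair the kidneys, with correlations of same-numbered deviations of -0.22, 0.31, 0.18, and -0.25. With the number as a replicate block, 6 genes were higher and 1 lower, as without it, and 1437 of all genes were higher against 1655. A block by chip was not run, since the files name no chip. Signals near background limit Ciita, H2-DMb2, H2-K1, Tap1, and most nonclassical class I genes.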
